A study of Drosophila melanogaster with 4 samples.

Results

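Closely spaced arrays of short JHDM1-enriched regions were examined in chromatin from nuclei of adult heads of Drosophila melanogaster. The regions of enrichment, called clusters here, were linked on the 5 arms 2L, 2R, 3L, 3R and X when neighbours lay 2000 bp or less apart and each was 10000 bp or shorter. A run was any chain of 3 or more linked clusters in the whole-series list, so members were chosen by the measured start and end of each cluster and by nothing else. The rule gave 583 runs with 2183 member clusters, which were 29.0% of the 7529 clusters on the 5 arms and came from 8005 clusters in all. The study comprised 2 ChIP libraries made with an antibody to JHDM1 (Q2634) and 2 input libraries, each input serving the ChIP library of its own number. All 4 came from the wild-type strain Oregon-R at the stage given as mixed adult, with no treatment and no other genotype, so the comparisons are between places in the genome and between lists. Heads hold many cell types, and these clusters cannot be assigned to any of them. Whether each replicate was a separate collection of flies is not stated, so differences between replicates may have technical sources. The whole-series list is given for the replicate set, so it is taken to share its libraries with the lists of the 2 ChIP replicates. No measure was therefore independent of the positions that chose the members, and the values below are descriptions without a test.

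JHDM1 is another name for the product of the fly gene Kdm2 (CG11033). The protein is a JmjC-domain demethylase, of a class of enzymes that remove methyl groups from lysines of histone tails. In Drosophila Kdm2 is known as a subunit of a Polycomb-group complex, dRAF, together with a RING-type ubiquitin ligase that modifies histone H2A. In mammals its homologues bind CpG islands through a zinc finger. An array of short clusters can be several neighbouring regions or a broad region with narrow breaks, and the values below describe where each replicate list places its breaks.

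Most runs were small. Of the 583 runs, 355 (60.9%) held 3 clusters, 116 held 4, 67 held 5 and 45 held 6 or more, with a maximum of 11. They spanned 4875 to 55903 bp with a median of 13955 bp, and together they took up 8.94 Mb, or 7.51% of the 5 arms. Clusters filled most of each run: the covered share of a run's span had a median of 87.2% and ranged from 58.0% to 99.8%. The 1600 gaps inside runs had a median of 646 bp, and 391 of them (24.4%) were 250 bp or shorter, down to 1 bp. Members had a median length of 2923 bp, against 2501 bp in the 4888 short clusters outside runs. The widest gap inside a run was 1999 bp, and the narrowest gap that ended a link between short neighbours was 2003 bp. In the last 100 bp below the limit there were 60 gaps between short neighbours, and in the first 100 bp above it there were 50. The longest member had 9977 bp, and the shortest cluster over the limit had 10005 bp. Another 1712 short clusters formed 856 linked pairs and so fell 1 cluster short of a run, with a median length of 2779 bp and a median score, the authors' own value per cluster, of 0.724, against 2851 bp and 0.711 in runs of 3.

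Runs of similar number and size resulted when each replicate list was linked alone by the same rule. Replicate 1 gave 562 runs with 2118 members and replicate 2 gave 530 runs with 1977 members. Members were 28.9% of the 5-arm clusters in replicate 1 and 29.1% in replicate 2. The median span was 13866 bp in replicate 1 and 13559 bp in replicate 2, and the median gap inside runs was 759.5 bp and 679 bp in those lists. Runs of 3 made up 56.4% of the runs in replicate 1 and 57.9% in replicate 2. Runs of 3 were the most frequent in all 3 lists, and the upper end was 11 clusters in replicate 1 and 16 in replicate 2. The lists held similar numbers of clusters on the 5 arms, and no reference for these run counts was computed. Many runs were not at the same places. A whole-series run was overlapped by 284 runs of replicate 1 (50.5%) and by 269 of replicate 2 (50.8%).

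**Figure D1:**
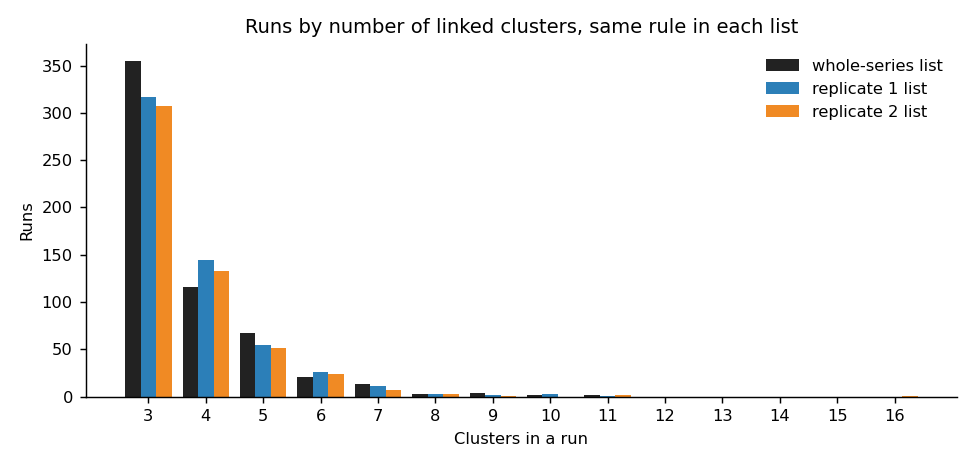
Number of runs (y axis) by the number of clusters linked in a run (x axis) in the whole-series list and in the lists of replicates 1 and 2, all linked by the same rule. Runs of 3 were the most frequent in each list, with 355, 317 and 307 runs, and the largest run held 16 clusters, in replicate 2.

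Runs were spread along all 5 arms and were densest on the X. The X carried 140 runs, or 6.24 per Mb, against 443 runs, or 4.59 per Mb, on the 4 autosomal arms together. Among the autosomal arms 2R had the highest density at 5.15 per Mb, followed by 3L at 4.81, 3R at 4.26 and 2L at 4.22. Clusters of any kind were about equally dense on the X and on the autosomal arms, at 64.1 against 63.1 per Mb. Clusters over 10000 bp, which the rule leaves out, were sparser on the X, at 2.10 per Mb against 4.25 per Mb. Of the X clusters 35.4% were members of a run, against 27.5% of the autosomal ones.

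The replicates did not share this order of the arms. Linked alone, replicate 1 had 4.95 runs per Mb on the X and 4.67 per Mb on the autosomal arms. Replicate 2 had 2.99 runs per Mb on the X and 4.79 per Mb on the autosomal arms. Divided by the density in replicate 1, that in replicate 2 came to 0.604 on the X, outside the range of 0.901 to 1.09 on the 4 autosomal arms. Replicate 2 also had fewer X clusters of any kind, 47.5 per Mb against 62.7 per Mb in replicate 1. Each arm had 1 value per library, and the highest density of runs on the X was a feature of the whole-series list.

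**Figure D2:**
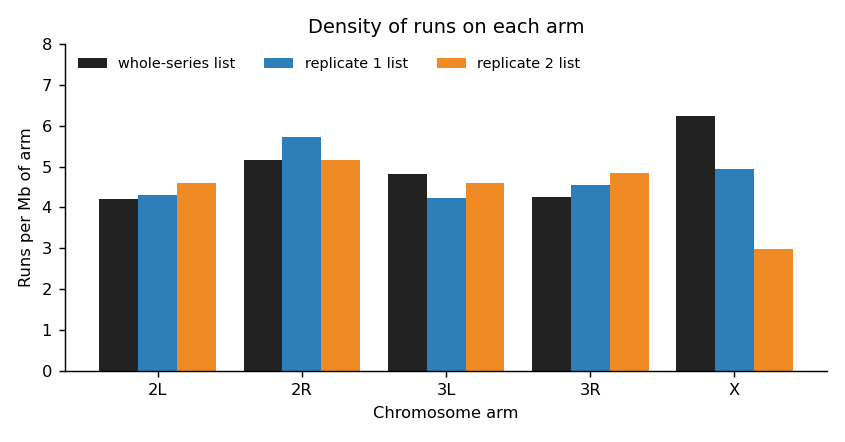
Runs per Mb of each chromosome arm (y axis, bars from 0) on the arms 2L, 2R, 3L, 3R and X (x axis) in the 3 lists. The autosomal arms lie between 4.22 and 5.72 runs per Mb in every list, while the X stands at 6.24 in the whole-series list, 4.95 in replicate 1 and 2.99 in replicate 2.

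Along the arms, 116 of the 117 full 1 Mb bins held at least 1 run, with a median of 5 runs and a maximum of 12. The bin without a run lay on 2L from 14 to 15 Mb, and each replicate list had 1 run there. The bins with the most runs were on the X from 11 to 12 Mb and from 19 to 20 Mb, with 12 each. Replicate 1 had 7 and 9 runs in those bins and replicate 2 had 5 and 4. On 3L from 9 to 10 Mb the lists were closer, with 11 runs in the whole-series list, 9 in replicate 1 and 10 in replicate 2. On 3L from 20 to 21 Mb they were not, with 10, 4 and 5 runs. Over the 117 bins the number of runs in replicate 1 and replicate 2 had a Spearman's rho of 0.50, and in the whole-series list it followed the number of clusters per bin with a rho of 0.75. These bins share their libraries, so no p is given. The 1 Mb of each of the 5 assembled arms next to its centromere held 9 runs in all, with 0 on 3L. The 1 Mb next to each telomere held 19 in all. Only runs lying wholly inside were counted, and the density over the 5 arms was 4.90 runs per Mb.

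Neighbouring runs lay a median of 107 kb apart, and 49 of 578 distances between them were under 10 kb. At 1093 run ends the next cluster was beyond the 2000 bp limit, at a median of 6909 bp. At least 1 end of 68 runs (11.7%) instead met a cluster over 10000 bp within the limit, and 2 runs did so at both ends.

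Members were found in the replicates about as often as other clusters. A member was taken as found in a list if it shared at least 1 bp with a cluster there. Of the 2183 members, 1458 (66.8%, 95% Wilson interval 64.8 to 68.7%) touched a cluster of both replicates, against a background of 66.6% of all 7529 clusters on the 5 arms, members included. The share touching replicate 1 was 82.5% (background 83%) and that touching replicate 2 was 76.3% (background 74.2%). Neither replicate touched 173 members (7.92%, background 9.43%). Every run had at least 1 member touched by a replicate. In 140 of 583 runs all members were touched in both, a condition stricter than the same one on a single member. Members inside a run and members at its ends had similar shares in both replicates, at 67.6% and 66.1%. The intervals treat neighbouring clusters as independent and cover counting error only.

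The length of a cluster went along with its being found again. A longer cluster shares 1 bp with another more easily, so a rise with length follows in part from the definition. Among members of 1500 bp or less, 14 of 354 (3.95%) touched both replicates, against 9 of 881 (1.02%) short clusters outside runs. The shortest cluster of either replicate list, over all its clusters, had 1301 bp, against 1001 bp in the whole-series list. The lists thus differ in their shortest clusters, and the part of this in the comparisons between lists was not tested. From 1500 to 2500 bp the shares were 48.7% of members and 51.4% of the other short clusters. From 2500 to 4000 bp they were 84.7% (95% interval 81.4 to 87.5%) and 89.4% (87.6 to 91.0%), and above 4000 bp both were over 96%. Members were longer than other short clusters, and their share over all lengths was higher, 66.8% against 63.4%. By class of length it was higher only up to 1500 bp and lower in each class above. Above 4000 bp the differences were small, with 96.3% against 96.5% up to 6000 bp and 99.1% against 99.6% beyond. These length classes, and the classes of gap width used below, were chosen after the values were seen.

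On the X the members differed between replicates as the arm did. Replicate 1 touched 446 of 508 X members (87.8%) and replicate 2 touched 323 (63.6%). On the autosomal arms the 2 lists touched 81.0% and 80.2% of 1675 members. Short X clusters outside runs showed the same split, with 85.4% touched by replicate 1 and 57.1% by replicate 2.

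For each gap inside a run, the clusters of a replicate touching the flanking members were compared. A gap was called spanned if 1 replicate cluster touched the members on both sides, and separate if both members were touched but by different clusters. In replicate 1, 246 of 1600 gaps (15.4%, 95% interval 13.7 to 17.2%) were spanned and 864 (54.0%) were separate. In replicate 2, 174 gaps (10.9%, 9.44 to 12.5%) were spanned and 791 (49.4%) were separate. Over all 2873 gaps of 2000 bp or less on the 5 arms, those inside runs included, the background was 14.8% spanned and 57% separate in replicate 1, and 10.7% spanned and 51.1% separate in replicate 2, so gaps inside runs stood close to it. The remaining gaps had a member touched on 1 side only (433 and 520 gaps) or on neither side (57 and 115 gaps).

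The replicates seldom joined the same gap. Of the 1600 gaps, 404 (25.2%) were spanned in at least 1 replicate, but only 16 (1.00%) in both. Another 184 gaps (11.5%) were spanned in 1 replicate and separate in the other. The same state was found in both lists for 724 gaps (45.2%), of which 526 were separate in both. Among the 726 gaps with both flanking members touched in both lists, 526 (72.5%) were separate in both. Only gaps open in the whole-series list entered these counts, and that list is taken to come from the same libraries, so the count of 16 is not independent of how the runs were chosen.

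Narrow gaps were joined far more often than wide ones. Up to 250 bp, 36.6% of 391 gaps were spanned in replicate 1 and 27.9% in replicate 2. From 251 to 500 bp the shares were 21.6% and 11.7% of 282 gaps. From 501 to 1000 bp they were 6.13% and 4.25% of 424 gaps, and from 1501 to 2000 bp 3 of 211 gaps (1.42%) in each replicate. The order of the size classes was the same in both lists. A cluster must be longer than a gap to span it, so a fall with width follows in part from the definition. The share by width over gaps outside runs was not computed.

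**Figure D3:**
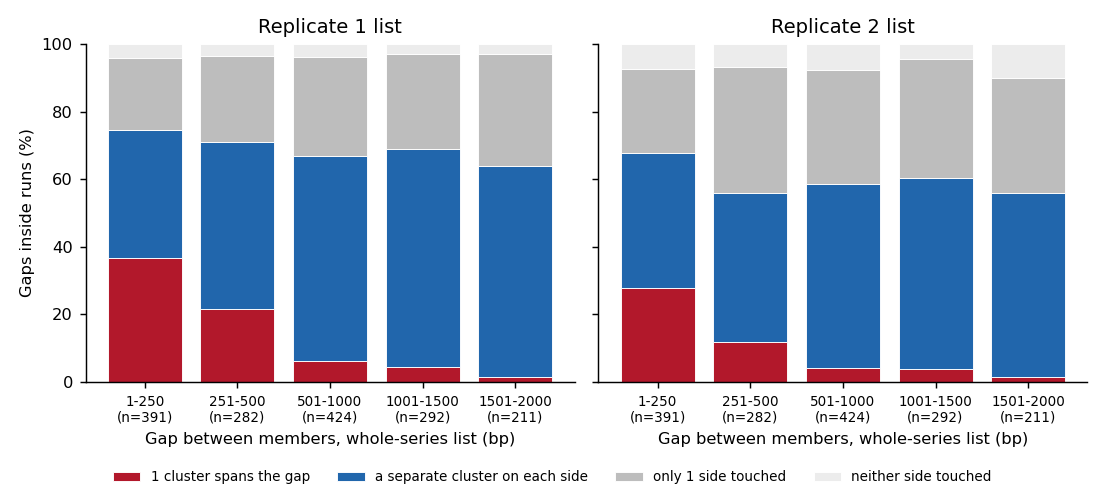
Share of the gaps inside runs (y axis, percent) by the width of the gap in the whole-series list (x axis, bp, with the number of gaps), as found in replicate 1 and in replicate 2. The part spanned by 1 replicate cluster falls from 36.6% and 27.9% in gaps of up to 250 bp to 1.42% in gaps over 1500 bp, while gaps with only 1 side touched take between 21.5% and 37.2% in every class.

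On the X the joined share differed between replicates. Replicate 1 spanned 20.9% of the 368 X gaps (95% interval 17.1 to 25.4%), against 13.7% of the 1232 autosomal gaps. Replicate 2 spanned 4.08% of the X gaps (2.49 to 6.62%), against 12.9% of the autosomal gaps. In replicate 2, 47.3% of X gaps had only 1 touched side and 12.5% had none. Replicate 2 also had fewer X clusters, as given above, and the part of that density in the joining was not tested. The spanned share over all X gaps of 2000 bp or less was not computed, so these values are not particular to runs.

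At 525 gaps that both replicates kept open, the flanking clusters followed each other directly in each replicate, so that its width could be read there. The median width was 1220 bp in replicate 1 and 1202 bp in replicate 2, against 771 bp in the whole-series list. The rule holds the whole-series gaps to 2000 bp and sets no limit on the replicate gaps, so the widths are not on equal terms. The midpoints of the gap in the 2 replicates were a median of 377 bp apart (quartiles 150.5 and 709 bp), and 314 (59.8%) lay within 500 bp of each other. Both midpoints are bound by the definition to the stretch between the outer borders of the 2 members.

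In base pairs, replicate 1 covered 78.6% of the member sequence and 19.2% of the gaps inside runs, and replicate 2 covered 72.2% and 13.9%. In the 2000 bp on either side of the runs the covered share was 9.44% in replicate 1 and 8.02% in replicate 2. The arms as a whole were covered at 21.7% and 20.1%. In each replicate the gaps were thus covered less than the arms as a whole and more than the flanks. By the rule, gaps hold no cluster of the whole-series list and flanks hold none of 10000 bp or shorter. Longer clusters could reach into the flanks, of which the whole-series list covered 3.90%. Since that list is taken to share its libraries with the replicates, low values in gaps and flanks follow in part from the rule.

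Whole runs were compared next. A condition on all gaps of a run is stricter than one on a single gap, so lower shares of runs follow from the definition. Every gap of a run was separate in replicate 1 in 178 of 583 runs (30.5%) and in replicate 2 in 150 (25.7%), and in 71 (12.2%, 95% interval 9.77 to 15.1%) this held in both. No run lay within a single replicate cluster (0 of 583 in each list, which allows up to 0.655% by the Wilson interval). All gaps were spanned in 12 runs in replicate 1 and in 7 in replicate 2, with 0 runs in common. The number of replicate clusters over a run was below the number of members in 53.3% of runs in replicate 1 and 57.6% in replicate 2. It equalled that number in 34.3% and 28.3%, and exceeded it in 12.3% and 14.1%.

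When the same rule was applied to each replicate, 277 whole-series runs (47.5%, 95% interval 43.5 to 51.6%) overlapped a run of replicate 1 and 263 (45.1%, 41.1 to 49.2%) a run of replicate 2. Both replicates had a run at 139 (23.8%), and 182 (31.2%) had a run in neither. No reference share, such as that of other stretches of like span, was computed. Larger arrays were found again more often. Of runs of 3, 14.4% had a run in both replicates, against 60.0% of the 45 runs of 6 or more, although a longer span also meets another run more easily. On the X 50.7% of the 140 runs overlapped a run of replicate 1 and 22.9% a run of replicate 2. On the autosomal arms the shares lay between 38.1% and 55.0%.

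The replicates' own arrays were often joined elsewhere. Of the 1556 gaps inside runs of replicate 1, a single cluster spanned 42.9% in the whole-series list and 39.5% in replicate 2. Of the 1447 gaps inside runs of replicate 2, 43.6% were spanned in the whole-series list and 43.8% in replicate 1. These shares are higher than the 15.4% and 10.9% of whole-series gaps spanned in the replicates. They are not on equal terms, since the whole-series gaps were open in a list taken to share the libraries of both replicates. The gaps of a replicate's runs were open in the list of that replicate. The share over all gaps of 2000 bp or less in the replicate lists was not computed. The whole-series list had more clusters over 10000 bp on the 5 arms, 458 against 207 in replicate 1 and 248 in replicate 2. Of those 458 long clusters, 188 (41.0%) overlapped a run of replicate 1 and 168 (36.7%) a run of replicate 2. Of the replicates' own runs, 235 of 562 (41.8%) in replicate 1 and 233 of 530 (44.0%) in replicate 2 overlapped a run of the other replicate.

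Members had scores close to those of other short clusters. The score is the authors' own value for a cluster, of unstated unit. Correlations and percentiles use its rank, and other scores are given as deposited. The median over members of a list's own runs was 0.893 in replicate 1 and 0.997 in replicate 2. Whether the lists share 1 scale is not known, so a higher value in another list does not show a stronger cluster. Members had a median score of 0.713 (quartiles 0.511 and 1.00) in the whole-series list, against 0.727 in the other short clusters and 1.09 in clusters over 10000 bp. Their median stood at the 46.3 percentile of the 5 arms, against 47.5 for the other short clusters. Of the 100 highest scores on the 5 arms 13 belonged to members, and of the 500 highest 76 did, fewer than the 29.0% of clusters that were members. Within each class of length the members had the lower median score, most clearly in 2 classes. From 2500 to 4000 bp their median score was 0.802 against 0.965, and from 4000 to 6000 bp 0.903 against 1.00. The medians were 0.480 against 0.495 up to 1500 bp and 0.530 against 0.534 from 1500 to 2500 bp. From 6000 to 10000 bp they were 1.01 against 1.04.

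Members of a run had scores as mixed as those of clusters at large. Over 1600 pairs of neighbours within runs, Spearman's rho of the scores was 0.033 in the whole-series list. In runs of the replicate lists it was -0.0085 over 1556 pairs in replicate 1 and 0.056 over 1447 pairs in replicate 2. Short neighbours more than 20 kb apart gave -0.0069 in the whole-series list. The intraclass correlation of the score percentile over the 583 runs was 0.014, a value of 0 meaning that members of a run resemble each other no more than members of different runs. In 295 runs (50.6%) the scores spread over more than 50 percentile points, and the median distance between the lowest and highest score of a run was 0.635. These correlations run across clusters of the same libraries and carry no p.

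**Figure D4:**
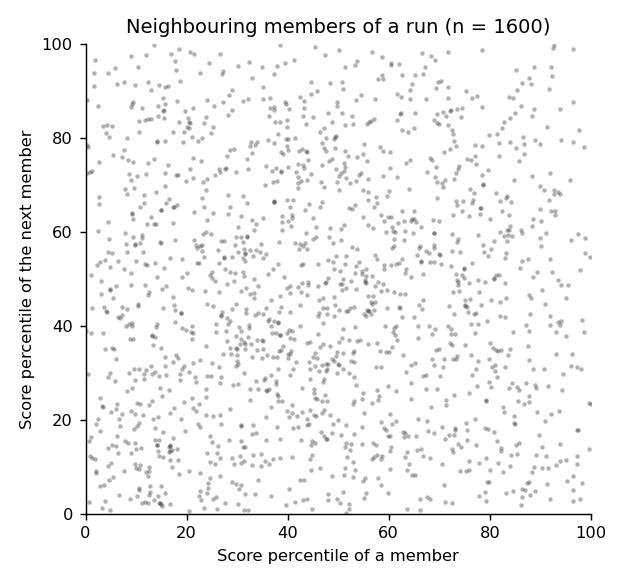
Score percentile of a member (x axis) and of the next member of the same run (y axis) in the whole-series list, with 1 point for each of 1600 neighbouring pairs. Percentiles are ranks among the clusters of the 5 arms. The points fill the square with no visible slope, as the rho of 0.033 states.

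Length was the feature that went with the score. Across the 2183 members the rho between length and score was 0.68, against 0.62 over the 4888 short clusters outside runs. The longest member also had the highest score in 305 runs (52.3%), for which no reference share was computed. The place in the run showed little order: in the 355 runs of 3 the highest score was in the first cluster 127 times, in the middle one 107 times and in the last 121 times. Larger runs did not score higher, with a rho of 0.027 between the number of clusters and the median score of a run. Between replicates the score of a member's best counterpart had a rho of 0.43 over 1204 members with a counterpart of their own in both lists, against 0.55 over 2998 other short clusters.

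The largest runs show how the lists break the same stretch. By number of clusters the first was on 2L at 2944482-3000384 (FlyBase release 5, as for all coordinates here), with 11 clusters over 55.9 kb and gaps from 37 to 1585 bp. Replicate 1 had 11 clusters there and touched 10 members, and replicate 2 had 10 clusters and touched all 11. Their clusters were not the same ones. The highest-scoring member, at 2971512-2975990 with a score of 2.12, lay 37 bp from the next, at 2976028-2981424 with 1.23. That narrow gap was spanned in both replicates, by clusters scored 1.22 in replicate 1 and 1.95 in replicate 2. Replicate 1 had a further cluster scored 2.54 at 2971395-2974040, so its own break lay inside the highest-scoring member. At the right of the run, replicate 2 had 1 cluster of 11574 bp at 2982401-2993974, over which replicate 1 had 3 clusters. The lowest score of the run was 0.249, at the 1.01 percentile of the 5 arms.

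A second run of 11 clusters lay on 2R at 6348254-6398808 over 50.6 kb. Each replicate had 7 clusters there, but they did not divide the stretch in the same way. Replicate 1 had 1 cluster of 12541 bp at 6384501-6397041 across 3 members. Replicate 2 had 1 cluster of 1549 bp in that interval, at 6393716-6395264, and touched no member from 6378810 to 6392708. Over the whole run replicate 1 covered 72.1% and replicate 2 48.5% of the span.

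On 3L the largest run, at 3126342-3172688, held 10 clusters over 46.3 kb, and all 10 were touched in both replicates. Replicate 2 spanned none of its 9 gaps and replicate 1 spanned 2. The run with the most clusters in any list overlapped it: 16 clusters in replicate 2 at 3113424-3172455, spanning 59.0 kb and named here after its size was seen. By span, the longest run of replicate 2 was another, of 62164 bp. Over the stretch of the run of 16 clusters, the whole-series list had 11 clusters and replicate 1 had 12. The covered shares there were 85.1% and 73.8%, against 79.0% in replicate 2. The stretch was broken in all 3 lists. The run with the most clusters in replicate 1 lay at 1356407-1407636 on 3R, also named after its size was seen. It had 11 clusters in replicate 1 and 7 in replicate 2, while the whole-series list had 6, the longest of 21.9 kb.

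On 3R the largest run lay at 8221574-8262556, with 9 clusters over 41.0 kb. Replicate 1 touched 8 members with 8 clusters and replicate 2 touched 6 with 7. Its members at 8239756-8247104 and 8247334-8254856 were joined in replicate 1 by a cluster of 13131 bp and separate in replicate 2. On the X the largest runs were 2 runs of 9 clusters, at 6727856-6764014 and 19490680-19526516. In the first, replicate 1 touched all 9 members and covered 88.9% of the span, and replicate 2 touched 4 members and covered 30.3%. In the second, replicate 1 touched 7 members and replicate 2 touched 6, with 72.9% and 43.4% of the span covered. In both, replicate 2 touched fewer members and covered less of the span than replicate 1. The number of clusters did not follow this: replicate 2 had 4 against 8 in the first run, but 9 against 6 in the second. Replicate 2 spanned 0 gaps in each run, and replicate 1 spanned 3 in the first and 2 in the second.

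**Figure D5:**
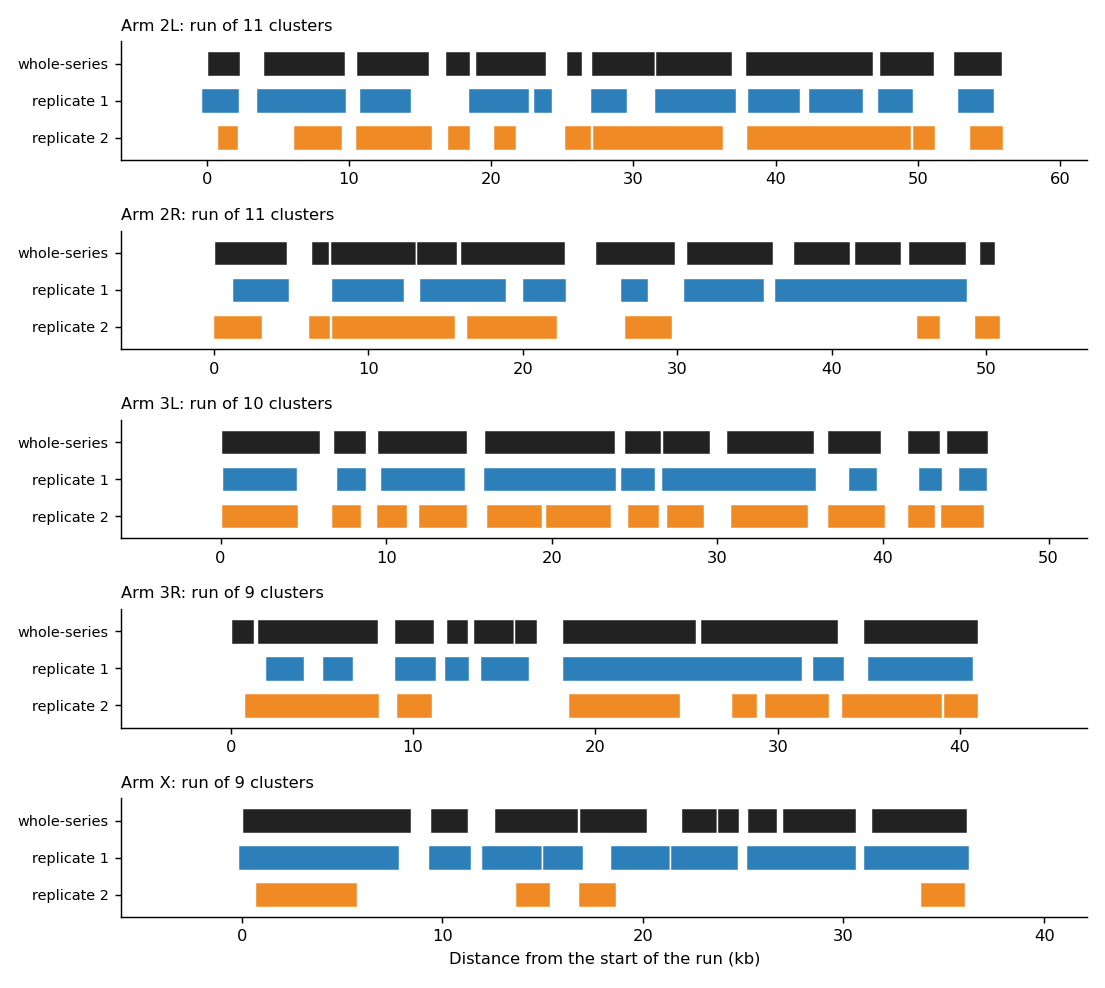
Map of the run with the most clusters on each arm, with the distance from the start of the run in kb on the x axis. Each bar is a cluster drawn to scale, in the whole-series list (black), replicate 1 (blue) and replicate 2 (orange), with a thin white edge between bars that nearly meet. The 2L and 2R runs hold 11 clusters, that on 3L 10 and those on 3R and the X 9, and the replicate clusters join and break the same stretches at different places.

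The other 6 of the 12 largest runs had 7 to 10 clusters. On 2L at 1113936-1144402, 10 clusters filled only 74.3% of 30.5 kb, and replicate 1 touched 5 of them and replicate 2 touched 8. The highest score in that run, 1.22 at 1126480-1131186, had counterparts scored 1.30 in replicate 1 and 1.72 in replicate 2. Its shortest member, of 1051 bp at 1125094-1126144, was touched by replicate 2 alone and through that same counterpart. A run of 9 clusters on 2L at 5976418-6008128 had 5 clusters in replicate 1 and 7 in replicate 2. On 3L, runs of 8 clusters lay at 9349520-9386272 and 7696686-7718268 and a run of 7 at 1636504-1669784, and on 3R a run of 8 lay at 23767706-23793398. Replicate 2 touched all members of the 3L runs at 7696686-7718268 and 1636504-1669784, of which replicate 1 touched 5 each. In 9 of the 12 largest runs replicate 1 had a run of its own by the same rule, and in 11 replicate 2 had one.

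The run with the highest single score was on 3R at 13440132-13451736, with 3 clusters over 11.6 kb. Its first member had a score of 3.48 in the whole-series list, 3.29 in replicate 1 and 3.88 in replicate 2, and the gap of 83 bp beside it was open in both replicates. The second member, of 2029 bp, had scores of 0.501, 0.624 and 0.457 in those lists, and the third had 0.955, 0.911 and 1.09. All 3 clusters and both gaps were therefore present in every list, with the same order of scores. The run whose lowest score was the highest was on 2R at 2037448-2062386, with 4 clusters over 24.9 kb that filled 97.6% of it. Its scores were 1.93, 1.39, 1.63 and 3.20 in the order of position. Replicate 1 had 3 clusters there, joining the last 2 members across 33 bp, and replicate 2 had 5, covering 94.7% and 87.4% of the span. Both runs were chosen for their scores, so these values describe them only.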

How the data were processed

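Chromatin from adult head nuclei was immunoprecipitated for JHDM1 and sequenced, with 2 ChIP and 2 input libraries. Read alignment used Bowtie 0.12.7, per the submitters' processing notes. The authors deposited 3 lists of enriched regions, 1 for each ChIP replicate and 1 for the replicate set, each with starts, ends and a score in FlyBase release 5, per the file headers. The unit of the deposited score, the enrichment caller, its thresholds and the making of the whole-series list are not given in the sources used here. Read depth is unknown, so no precision of a score or border could be derived.

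Clusters were sorted by start, and the linking rule was applied to the whole-series list and, for comparison, to each replicate list. Touching means at least 1 bp in common. Shares have 95% Wilson intervals. Score correlations and percentiles use ranks, and other scores are given as deposited. Tested on simulated lists, the linking and the gap calls recovered the 719 runs, 3557 members and 2838 gaps planted there, with a largest difference of 0. Runs named are the 12 with the most clusters (ties by span), the largest on each arm, the run with the highest score and the run with the highest lowest score. The members and the rule were chosen with earlier results of these data known. Alternatives were other gap, length and run-size limits, higher scores only, no X, wider overlaps and each replicate alone. Genes and sequences are not used here, because the gene table at hand is that of Release 6. The scripts ran in Python 3.11.15 with pandas 2.3.3, numpy 2.4.6, scipy 1.17.1 and, for figures, matplotlib 3.10.9.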

Additional observations from a re-analysis of the deposited data

How the results depend on the processing

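Of 83 alternatives computed, 32 stayed within 1.5 times a count or within the 95% interval of a value, and 51 moved beyond it. This tally does not measure stability, since some moves follow from the setting itself: members per Mb exceed runs per Mb, high scores raise the score percentile, and 1 replicate asks less than both. No result had a test whose call could change. The number of runs was 334 at a gap of 1000 bp, 328 at a length limit of 5000 bp, 228 for runs of 4 or more, 1439 for runs of 2 or more and 83 if only clusters at or above the median score were linked. In replicate 1 it was 293, 329 and 245 under the first 3 of these settings, and in replicate 2 it was 271, 329 and 223. The share of members touching both replicates was 55.4% at a length limit of 5000 bp, 70.0% with no length limit, 96.3% with high scores only and 59.2% for an overlap of 50% of the member, and 76.3 to 82.5% with 1 replicate alone. The share of gaps spanned in at least 1 replicate was 35.1% at a gap of 1000 bp, 21.5% at 3000 bp and 21.8% with high scores only, and 10.9 to 15.4% with 1 replicate alone. The share separate in both was 28.5% at 1000 bp, 20.0% at a length limit of 5000 bp, 35.8% with no length limit and 72.9% with high scores only, and 49.4 to 54.0% with 1 replicate alone. The median score percentile of members was 36.0 at a length limit of 5000 bp, 50.4 with no length limit and 70.4 with high scores only. Whole-series runs found in replicate 1 were 28.4% at a gap of 1000 bp, 61.4% at 3000 bp, 33.8% at a length limit of 5000 bp, 54.2% with no length limit and 41.7% for runs of 4 or more, and in replicate 2 they were 25.4%, 55.4%, 29.9%, 53.1% and 34.6%. For 2L, 2R, 3L, 3R and X in this order, runs per Mb at a gap of 1000 bp were 2.48, 3.12, 2.36, 2.58 and 3.61, and member clusters per Mb were 16.3, 19.8, 17.6, 16.1 and 22.7. The X remained the densest arm at a gap of 3000 bp too, with 7.45 runs per Mb. No paired analysis was possible because only the ChIP libraries have lists among the files used. Stricter settings leave fewer clusters and gaps. Read depth is unknown, and its part in the cluster counts was not tested.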
